A study of Sus scrofa with 8 samples.

Results

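The matrix metallopeptidases (MMPs) and their tissue inhibitors (TIMPs) were examined in islets of neonatal pigs. The members were MMP1, MMP3, MMP7, MMP2, MMP9, MMP14, TIMP1, TIMP2 and TIMP3, which are 9 of the 6765 genes that the platform annotation names by a single symbol. Every probe set whose only symbol was one of these was taken, which gave 15 probe sets, and all 15 passed the filter on dim probe sets. The islets came from 4 male Duroc/Large white cross pigs labelled 7 days old and 4 labelled 3 days old. Each pig gave 1 array of the Affymetrix porcine GeneChip. The islets of both ages were prepared by collagenase digestion and cultured for 7 days in a medium with glucose, isobutylmethylxanthine, nicotinamide and albumin. The cultures hold islet cells together with the other cells that survive isolation.

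MMPs are zinc-dependent endopeptidases that cut the proteins of the extracellular matrix and also release growth factors, cytokines and receptors from it. Most are secreted as inactive proenzymes, which other proteases open, plasmin and other MMPs among them. Collagenases cut fibrillar collagen, stromelysins and matrilysin have broad substrates, gelatinases take denatured collagen and basement membrane collagen, and the membrane type enzymes work at the cell surface. TIMPs bind active MMPs one to one and block them. In pancreas the enzymes are made by mesenchymal, endothelial, epithelial and inflammatory cells, and they act on the basement membrane and capsule around islets. The bacterial collagenase used to isolate islets is a different protein and is not measured by these probe sets.

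The values were linear intensities per probe set, and the array medians lay between 172 and 178. Pearson correlations of log2 values over the probe sets tested were 0.942 to 0.957 for arrays of the same label and 0.930 to 0.940 for arrays of different labels. INS, GCG, SST and PPY, the hormone genes that mark the labelled tissue, were bright on all arrays, and INS averaged 23694 in islets labelled 7-day-old and 24649 in islets labelled 3-day-old. Within the 7-day-old label, replicates 3 and 4 lay at opposite ends of the second principal component, at -68.5 and 39.8, while the other 6 arrays lay between -24.4 and 17.9. Values without both of these arrays are given for the members and, at the end, for some of the listed genes. No source says more about the replicates than that each was 1 pig, so each p-value measures the spread between these 8 arrays.

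Of the 15 probe sets, 14 reached the 20th percentile of an array in at least 1 7-day-old array. All 14 were lower on average in islets labelled 7-day-old than in islets labelled 3-day-old, as were 50.1% of all probe sets tested. The other, of TIMP3, passed the filter only through a 3-day-old array, so its direction says nothing. Differences are given as mean log2 intensity of the 7-day-old label minus that of the 3-day-old label. The direction by deposited label is the reverse of the one the study gives, for the members it names and for every other probe set of its lists. Whether labels were exchanged, and on which side, is not settled by the sources. In these bulk samples fewer cells of a type and less RNA per cell cannot be told apart. Of the 15 probe sets, 9 passed the test with a lower level in the 7-day-old label (limma, adjusted p under 0.05 over 21574 probe sets), 0 passed with a higher level and 6 did not pass. Over all probe sets tested, 5.47% were lower and 5.21% were higher. The 9 lie in 6 members, and MMP1, MMP3, MMP2, MMP14 and TIMP1 passed with every probe set they have. The median difference was -0.92 over the 14 probe sets, against a median of 0.00 over all probe sets tested. MMP1, MMP3 and MMP2 are in lists that the study chose on these same arrays, so their direction is not independent evidence. The same holds for other genes named below that are in those lists. Among them are TGFB1, LIF, IL1A, AREG, DCN, NID2, PTGS2, BMPR1B, CXCL14 and RGS5.

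**Figure D1:**
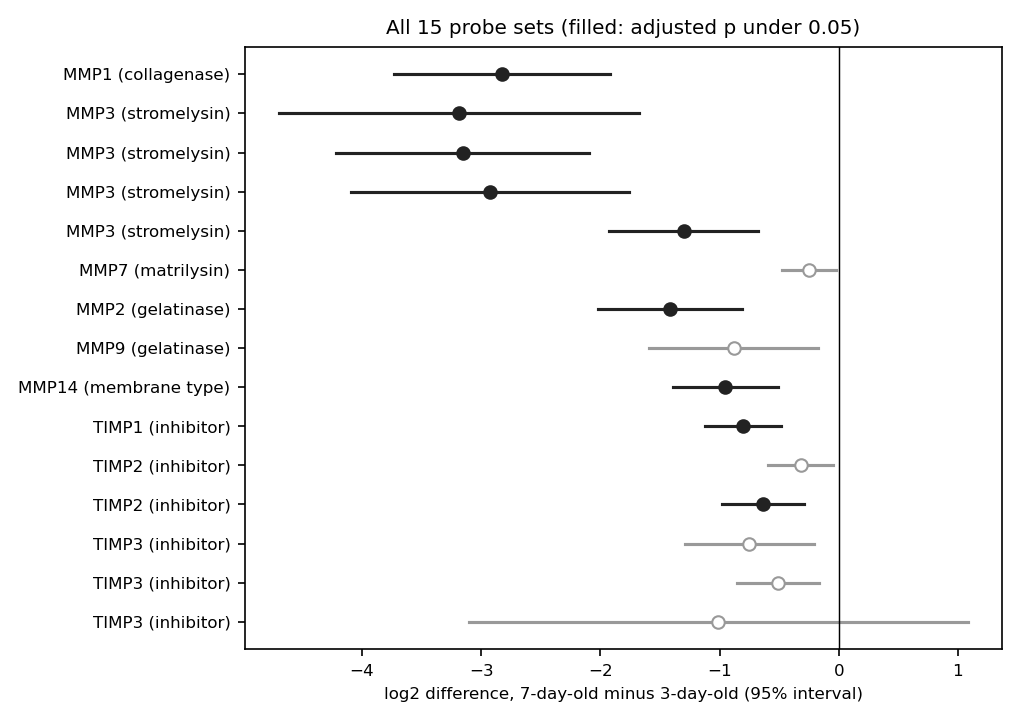
Difference of mean log2 intensity between the 7-day-old and the 3-day-old label (x axis) for the 15 probe sets of the 9 members (y axis), with 95% intervals; n = 4 arrays per label. All points lie below 0, the lowest on the y axis being the TIMP3 probe set that passed the filter only through a 3-day-old array, and the filled ones (9) passed the test over the whole array.

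MMP1 is the interstitial collagenase, which makes the first cut in the triple helix of fibrillar collagens. Its probe set, Ssc.16013.1.S1_at, read 1608, 871, 566 and 1993 in 7-day-old replicates 1 to 4, against 7742, 8233, 9760 and 6466 in 3-day-old replicates 1 to 4. The highest 7-day-old array was far below the lowest 3-day-old array. The means were 1260 ± 656 in islets labelled 7-day-old and 8050 ± 1362 in islets labelled 3-day-old (SD, n = 4 each). The log2 difference was -2.83 (SE 0.39, 95% interval -3.74 to -1.92, limma adjusted p = 0.00787), which is 7.10-fold lower in the 7-day-old label. An exact permutation test of the same difference gave p = 0.0286, the smallest that 4 arrays against 4 allow. The MMP1 call held when any array was left out, with a limma adjusted p between 0.0128 and 0.0277.

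MMP3 is stromelysin 1, which cuts proteoglycans, laminin, fibronectin and basement membrane collagen and activates other proenzymes, proMMP1 among them. RefSeq gives MMP10, the second stromelysin of other mammals, as a synonym of the pig MMP3 gene, so the probe sets are named here as the array annotation names them. The brightest of its 4 probe sets, Ssc.15927.1.S1_at, read 369, 205, 69.4 and 600 in the 7-day-old replicates, against 2456, 2327, 3039 and 1242 in the 3-day-old replicates. The groups did not overlap, and 7-day-old replicate 3 stood lowest. The log2 difference was -3.19 (SE 0.65, 95% interval -4.69 to -1.68, limma adjusted p = 0.0243), the largest among the 15 probe sets.

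The other MMP3 probe sets fell as well. Ssc.15927.2.S1_at averaged 259 ± 137 in islets labelled 7-day-old and 2127 ± 683 in islets labelled 3-day-old, with a difference of -3.16 (SE 0.46, limma adjusted p = 0.00896). Ssc.15927.2.A1_at had 69.5, 25.7, 20.1 and 90.2 in the 7-day-old replicates, against 303, 425, 350 and 238 in the 3-day-old replicates, a difference of -2.92 (limma adjusted p = 0.0146). Replicates 2 and 3 of the 7-day-old label lay below the 20th percentile of their arrays for that probe set, which makes them the dimmest MMP3 readings. Ssc.15927.1.A1_at differed by only -1.30 (SE 0.27, limma adjusted p = 0.0258), with 48.9 ± 14.9 in islets labelled 7-day-old and 120 ± 34.6 in islets labelled 3-day-old. So the 4 probe sets of MMP3 gave 1 direction and unequal sizes. The call was kept without any single array by Ssc.15927.2.S1_at and Ssc.15927.2.A1_at. Ssc.15927.1.S1_at lost it when replicate 2 of the 7-day-old label, or any of replicates 1 to 3 of the 3-day-old label, was left out (limma adjusted p up to 0.0670). Ssc.15927.1.A1_at lost it when any of replicates 1 to 3 of either label was left out (up to 0.0710).

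MMP7, matrilysin, is a small secreted protease without the hemopexin domain of the other MMPs examined here, and it is made mainly by epithelial cells. Its probe set, Ssc.548.1.S1_a_at, read 20026, 19924, 23452 and 19742 in the 7-day-old replicates, against 24378, 23116, 27302 and 23994 in the 3-day-old replicates. The highest 7-day-old array, replicate 3, was above the lowest 3-day-old array, so the groups overlapped. The means were 20786 ± 1782 in islets labelled 7-day-old and 24698 ± 1815 in islets labelled 3-day-old. The log2 difference of -0.25 (95% interval -0.47 to -0.02) did not pass the test (limma adjusted p = 0.143, exact permutation p = 0.0571). The highest intensity of each array lay between 30895 and 41079, so MMP7 read high on the scale. The part of this brightness in the size of the MMP7 difference was not tested. With an intensity trend and robust variances set together, the limma adjusted p of MMP7 was 0.0372.

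MMP2, gelatinase A, is made mainly by mesenchymal cells and is opened at the cell surface by MMP14. Its probe set, Ssc.5713.1.S1_at, read 1086, 780, 604 and 611 in the 7-day-old replicates, against 1398, 2750, 2121 and 1949 in the 3-day-old replicates. The groups did not overlap, although 7-day-old replicate 1 and 3-day-old replicate 1 came close to each other. The log2 difference was -1.42 (SE 0.26, 95% interval -2.02 to -0.81, limma adjusted p = 0.0180), or 2.67-fold lower in the 7-day-old label. Without 3-day-old replicate 3 the adjusted p was 0.0522.

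MMP9, gelatinase B, is stored and secreted by neutrophils and is also made by macrophages. Its probe set, Ssc.16790.1.S1_at, was dim, at 61.5, 46.5, 82.3 and 69.6 in the 7-day-old replicates, against 197, 94.1, 128 and 80.0 in the 3-day-old replicates. Replicate 3 of the 7-day-old label was above replicate 4 of the 3-day-old label, so the groups overlapped. The log2 difference was -0.88 (95% interval -1.59 to -0.17, limma adjusted p = 0.108, exact permutation p = 0.0571), which did not pass the test. The gelatinases therefore stood on different sides of the threshold, but their differences did not differ beyond the spread: MMP2 minus MMP9 was -0.53 (95% interval -1.90 to 0.83, exact permutation p = 0.40).

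MMP14 is the membrane type MMP that cuts collagen at the cell surface and activates proMMP2. Its probe set, Ssc.734.1.S1_at, read 203, 193, 122 and 152 in the 7-day-old replicates, against 259, 328, 352 and 341 in the 3-day-old replicates. Every 7-day-old array was below every 3-day-old array. The log2 difference was -0.95 (SE 0.19, 95% interval -1.39 to -0.51, limma adjusted p = 0.0222), or 1.94-fold lower in the 7-day-old label. MMP14 lost its call when replicate 4 of the 7-day-old label, or replicate 2 or 3 of the 3-day-old label, was left out, with a limma adjusted p of 0.0564 to 0.0629.

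TIMP1 inhibits most secreted MMPs but MMP14 only poorly. Its probe set, Ssc.11784.1.S1_at, read 2788, 2801, 2328 and 2235 in the 7-day-old replicates, against 4503, 3751, 5336 and 4179 in the 3-day-old replicates. The groups were well apart, and the arrays of each label lay close together. The log2 difference was -0.80 (SE 0.14, 95% interval -1.13 to -0.48, limma adjusted p = 0.0149), or 1.75-fold lower in the 7-day-old label. TIMP1 passed the test when any single array was left out (limma adjusted p 0.0263 to 0.0382).

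TIMP2 blocks MMPs and, bound to MMP14, also serves as the docking site at which proMMP2 is activated. Its brighter probe set, Ssc.11257.1.S1_at, read 1923, 2197, 2305 and 2167 in the 7-day-old replicates, against 2464, 2361, 3135 and 2813 in the 3-day-old replicates. The groups did not overlap, yet the difference of -0.32 (95% interval -0.59 to -0.05) did not pass the test over the array (limma adjusted p = 0.125). The dimmer, Ssc.1082.1.S1_at, read 680, 654, 893 and 885 in the 7-day-old replicates, against 1086, 1069, 1345 and 1311 in the 3-day-old replicates. It passed with a difference of -0.64 (SE 0.15, limma adjusted p = 0.0361). So the TIMP2 probe sets gave the same direction, one on each side of the threshold. Leaving out any of 6 arrays, namely replicates 1 and 2 of the 7-day-old label and all of the 3-day-old label, ended the call of the dimmer one (limma adjusted p up to 0.0902), as did the methods' t-test with Benjamini-Hochberg adjustment (0.0515).

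TIMP3 is held in the extracellular matrix and inhibits ADAM17 as well as MMPs. None of its 3 probe sets passed the test. The brightest, Ssc.9661.1.S1_at, read 169, 115, 131 and 228 in the 7-day-old replicates, against 215, 265, 252 and 323 in the 3-day-old replicates, with 7-day-old replicate 4 inside the 3-day-old range. Its difference was -0.75 (95% interval -1.29 to -0.21, limma adjusted p = 0.0823), and it passed without 7-day-old replicate 4 (0.0392), with a filter at the 50th percentile in at least 4 arrays (0.0269) and with the intensity trend and robust variances (0.0302). Ssc.16028.1.S1_at differed by -0.51 (limma adjusted p = 0.0695) with no overlap between the groups, at 137 ± 22.9 in islets labelled 7-day-old and 194 ± 21.1 in islets labelled 3-day-old. Ssc.16028.1.A1_at reached the 20th percentile in 1 array alone, 3-day-old replicate 1, and its difference of -1.01 had an interval of -3.10 to 1.08.

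**Figure D2:**
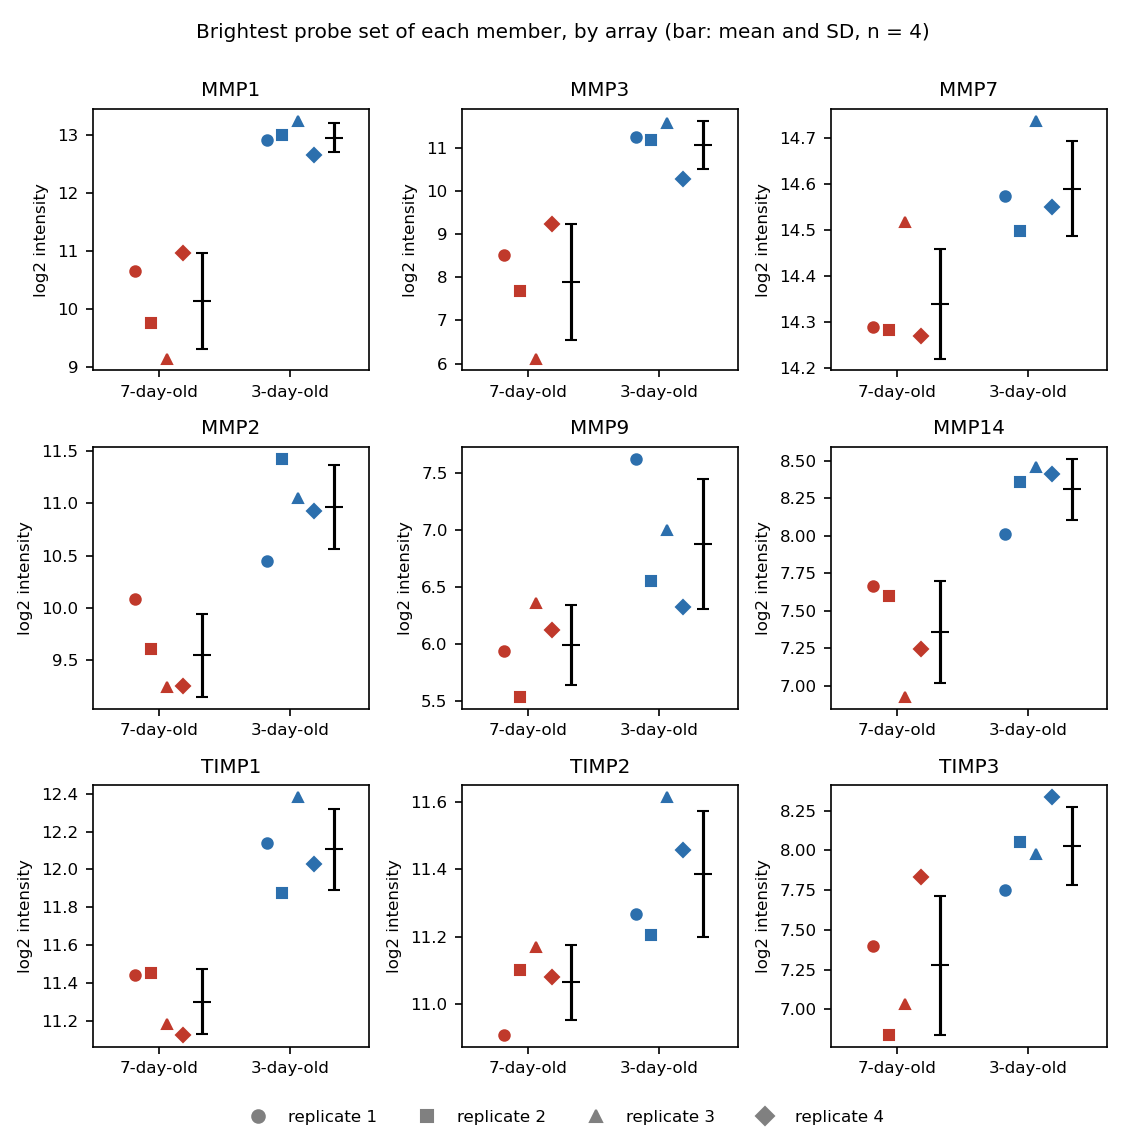
Log2 intensity (y axis) of the brightest probe set of each of the 9 members in the 4 arrays labelled 7-day-old (left) and the 4 labelled 3-day-old (right); each point is 1 array, and the bar gives the mean with its SD. MMP1, MMP3, MMP2, MMP14, TIMP1 and TIMP2 show no overlap between labels, and MMP7, MMP9 and TIMP3 overlap.

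Of the 15 probe sets, 11 had every 7-day-old array below every 3-day-old array, where 10.3% of all probe sets tested did and 21.2% had no overlap in either direction. The exact permutation test gave its smallest p, 0.0286, for the same 11.

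Whether enzymes and inhibitors moved by equal amounts was asked within arrays, as the difference between 2 members' log2 values, over all 36 pairs of members at their brightest probe sets. A negative value means that the first member was lower by more. MMP1 minus TIMP1 was -2.02 (95% interval -3.10 to -0.95), and MMP3 minus TIMP1 was -2.38 (95% interval -4.13 to -0.64). MMP1 minus MMP7 was -2.58 (95% interval -3.74 to -1.42), and MMP7 minus MMP2 was 1.17 (95% interval 0.39 to 1.94). MMP2 minus MMP14 was -0.46 (95% interval -0.89 to -0.03), and TIMP1 minus TIMP2 was -0.48 (95% interval -0.83 to -0.14). Each of these 6 pairs had the smallest exact permutation p, 0.0286, as did 17 of the 36 pairs in all. After Benjamini-Hochberg adjustment over the 36 pairs, these p-values became 0.0605, so 0 pairs passed 0.05 in a design whose smallest p is that high. The collagenase and the stromelysin were not separated, since MMP1 minus MMP3 was 0.36 (95% interval -0.43 to 1.15, exact permutation p = 0.314). MMP14 minus TIMP1 was -0.15 (95% interval -0.58 to 0.28, exact permutation p = 0.457), and MMP7 minus TIMP2 was 0.07 (95% interval -0.12 to 0.26, exact permutation p = 0.429). These intervals allow differences of the sizes they span. The sizes also depend on the probe set used. TIMP2 differed by -0.32 at the probe set used here and by -0.64 at its dimmer one. MMP3 differed by -3.19 at the probe set used here and by -1.30 at its dimmest one. Pairs at other probe sets were not tested.

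The spread among pigs was unequal across the members. The coefficient of variation of MMP1 was 52.1% in the 7-day-old label and 16.9% in the 3-day-old label, and that of MMP3 at its brightest probe set was 73.5% in the 7-day-old label and 33.1% in the 3-day-old label. The 4 arrays labelled 7-day-old spanned 8.65-fold in MMP3 and 3.52-fold in MMP1, against 2.45-fold in MMP3 and 1.51-fold in MMP1 for the 4 labelled 3-day-old. In all 5 probe sets of MMP1 and MMP3 the 7-day-old arrays had the same order, with replicate 4 highest, then replicates 1, 2 and 3. In the same 5 probe sets, 3-day-old replicate 4 was the lowest 3-day-old array. MMP2 and MMP14 had another order among the 7-day-old arrays, with replicates 1, 2, 4 and 3 from high to low. MMP7, MMP9 and both probe sets of TIMP2 were highest in 7-day-old replicate 3, in which MMP1, MMP3, MMP2 and MMP14 were lowest. Replicate 3 deviated by -1.77 in MMP3 and by 0.18 in MMP7 from the mean log2 value of its label, and replicate 4 deviated by 1.34 in MMP3. These are the arrays at the ends of the second principal component, and their part in the spread of MMP1 and MMP3 was not tested. Without both, MMP1 and the 3 brighter of the MMP3 probe sets kept their calls (limma adjusted p 0.0298 to 0.0432). MMP2, MMP14, TIMP1, the dimmer TIMP2 probe set and the dimmest MMP3 probe set did not (0.0522 to 0.106).

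**Figure D3:**
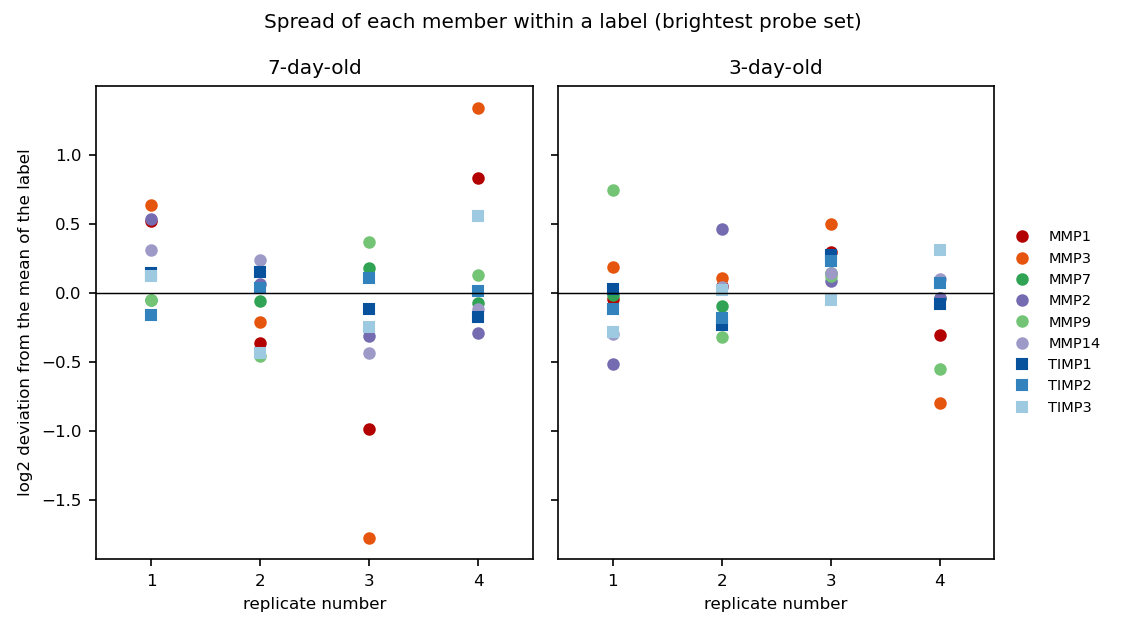
Deviation of each array's log2 intensity from the mean of its label (y axis) against the replicate number (x axis), for the brightest probe set of each member, in the 7-day-old label (left) and the 3-day-old label (right). MMP3 reaches 1.34 in 7-day-old replicate 4 and -1.77 in 7-day-old replicate 3, and the other members spread less than MMP3 in the 7-day-old label.

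MMP1, MMP3 and MMP7 lie in one cluster of MMP genes in the pig, in the order MMP7, MMP20, MMP27, MMP8, MMP1, MMP3, MMP12 and MMP13 among the protein-coding genes of Sscrofa11.1. The annotation names probe sets for 5 of these 8 genes. MMP1 and MMP3, which are neighbours, both fell in the 7-day-old label. MMP13, collagenase 3, is in the same cluster and differed by -0.03 (limma adjusted p = 0.967), with 159 ± 84.4 in islets labelled 7-day-old and 151 ± 39.8 in islets labelled 3-day-old. MMP20, the enamel enzyme, did not reach the 20th percentile in any array, and TIMP4 differed by 0.40 (limma adjusted p = 0.824). Genes of this family that the annotation does not name, MMP8 and MMP12 among them, were not analysed here.

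Genes that act around the MMPs were taken from lists, at the brightest probe set of each gene. Over all 6545 genes so measured, 7.15% were lower in the 7-day-old label and 5.03% were higher, with a median difference of -0.02. By the same measure 5 of the 9 members were lower, with a median of -0.88. Of 5 measured genes of plasminogen activation, which opens proMMPs through plasmin, 2 were lower and 0 higher, with a median of -1.06. PLAT, the tissue plasminogen activator, read 1141, 1062, 1191 and 879 in the 7-day-old replicates, against 1753, 1546, 1715 and 1962 in the 3-day-old replicates, a difference of -0.71 (limma adjusted p = 0.0161). SERPINE2, an inhibitor of thrombin and plasminogen activators, differed by -1.34 (limma adjusted p = 0.0343), a call lost without any of 7 arrays (up to 0.0868). Thus an activator and an inhibitor of the same step were both lower. PLAU, urokinase, differed by -1.06 and did not pass (limma adjusted p = 0.0561). Of 4 other regulators of MMPs, TFPI2, a matrix-bound inhibitor of plasmin and other serine proteases, passed with -0.91 (limma adjusted p = 0.0150), at 3755 in islets labelled 7-day-old and 7044 in islets labelled 3-day-old. The median of these 4 was -0.31. SPOCK3, a testican proteoglycan, differed by 0.92, and BSG, also called EMMPRIN, by 0.29. A2M, a broad protease inhibitor, differed by -1.44 at its brightest probe set and by 1.07 and -0.40 at its dimmer ones. None of these passed the test (limma adjusted p 0.0765, 0.223, 0.162, 0.196 and 0.537, in that order).

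Of 10 measured growth factors and cytokines known to induce MMPs, 5 were lower, 0 were higher and the median difference was -0.98. TGFB1, which raises TIMP1 and collagen in fibroblasts, had the smallest adjusted p of them, with a difference of -1.24 (limma adjusted p = 0.00991) and 175, 117, 104 and 144 in the 7-day-old replicates, against 263, 327, 368 and 297 in the 3-day-old replicates. LIF, an interleukin-6 family cytokine, differed by -1.44 (limma adjusted p = 0.0146), and its groups did not overlap. IL1A, a strong inducer of MMP1 and MMP3 in fibroblasts, differed by -1.08 (limma adjusted p = 0.0199), with 99.4, 91.5, 109 and 115 in the 7-day-old replicates, against 305, 235, 205 and 154 in the 3-day-old replicates. The IL1A call was lost without any of 4 arrays (up to 0.0582). AREG, an EGF receptor ligand, differed by -1.70 (limma adjusted p = 0.0317), and TNF, a dim probe set, by -2.80 (limma adjusted p = 0.0422); both calls were lost without any of 7 arrays. EGF and FGF2 had the higher mean log2 value in the 7-day-old label, with differences of 0.93 and 0.50. Neither passed (limma adjusted p 0.0741 and 0.630). The dimmer FGF2 probe set went the other way, at -0.48 (limma adjusted p = 0.251). IL1B, IL6 and HBEGF differed by -0.13, -0.88 and -0.21, and none of them passed (limma adjusted p 0.773, 0.114 and 0.410). A dimmer IL1B probe set differed by -1.53 and did not pass either (limma adjusted p = 0.442).

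Among 5 AP-1 and ETS factors, the transcription factor families that bind MMP promoters, 1 was lower, 0 were higher and the median was 0.06. The 1 was FOSL1, an AP-1 subunit, with -0.97 (limma adjusted p = 0.0436), a call lost without any of 7 arrays. The dimmer FOSL1 probe sets did not pass, at -0.35 and 0.55 (limma adjusted p 0.425 and 0.534). The probe sets of ETS2 disagreed. The brightest differed by 0.21 (limma adjusted p = 0.382), whereas both dimmer ones were lower by the test, with differences of -0.74 and -0.71 (limma adjusted p 0.0173 and 0.0213). The probe set at -0.74 lost its call without 7-day-old replicate 2, and the one at -0.71 without any of 5 arrays (up to 0.0620). Of 6 ADAM and ADAMTS genes, related metallopeptidases, 0 passed in either direction at the brightest probe set, where the smallest p-values were those of ADAM17, the TNF-releasing sheddase that TIMP3 inhibits, with -0.49 (limma adjusted p = 0.0566), and ADAMTS1, an aggrecan- and versican-cutting enzyme, with -0.64 (limma adjusted p = 0.0803). A dimmer ADAM17 probe set was lower by the test, at -0.75 (limma adjusted p = 0.0388), a call lost without any of 7 arrays (up to 0.0963).

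Of 19 measured matrix proteins that MMPs cut or that surround islets, 9 were lower, 0 were higher and the median was -0.79. DCN, decorin, a collagen-binding proteoglycan, had the largest difference of them at -2.05 (limma adjusted p = 0.0126). The basement membrane genes NID2, COL4A2 and LAMC1 differed by -1.58, -1.09 and -0.97, and the fibrillar and microfibrillar genes COL5A1, COL5A2, COL6A2, COL1A2 and FBN1 by -1.22, -0.79, -0.73, -0.71 and -0.97. COL1A2 lost its call without any of 7 arrays. The other 10 did not pass, among them the fibrillar collagens COL3A1 and COL2A1 at 0.11 and -0.11 (limma adjusted p 0.896 and 0.789). Differences were negative in 18 of the 19. COL5A1 also passed at another probe set, at -1.19. Its dimmer ones at -1.26, -0.12 and -0.20 did not (limma adjusted p 0.212, 0.859 and 0.737). LAMC1 also passed at -0.78 and -0.58 but not at -0.24 (limma adjusted p = 0.302).

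**Figure D4:**
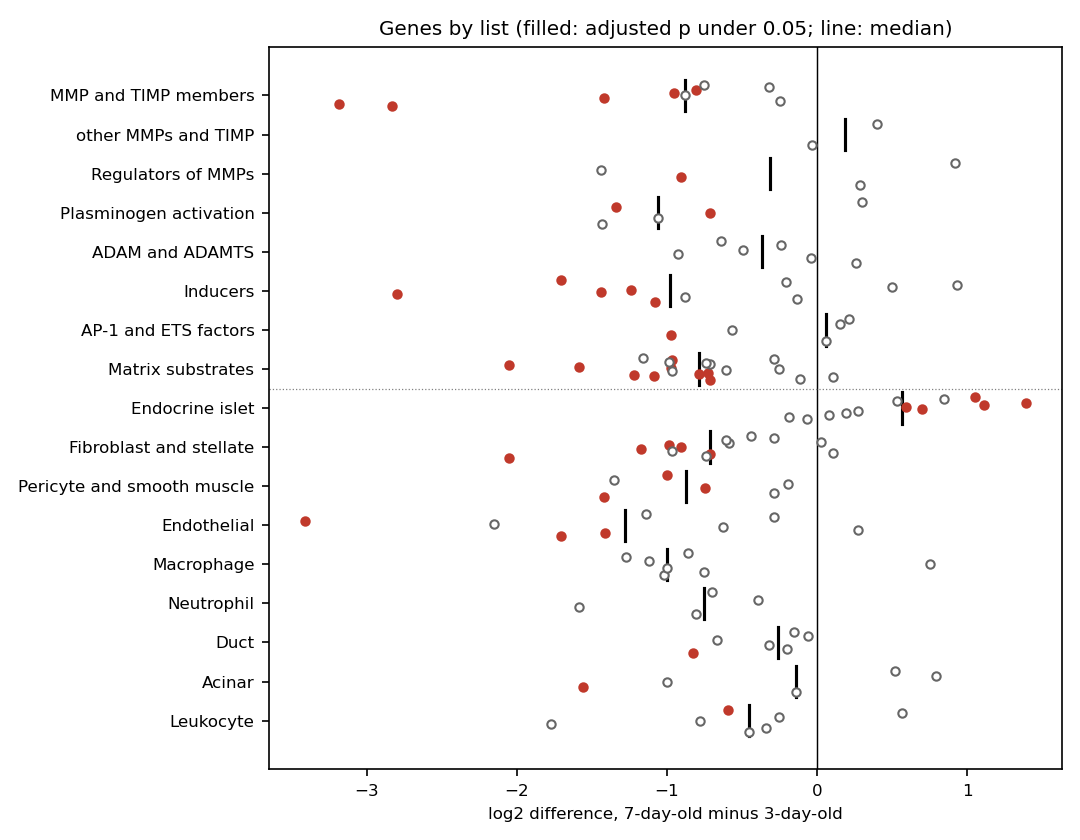
Difference of log2 intensity, 7-day-old minus 3-day-old label (x axis), for each gene of the lists (y axis), at 1 probe set per gene; filled points passed the test over the whole array, and the line is the median of the list. The members' median lies at -0.88, and the endocrine list is the one with genes that passed on the higher side, 5 of 12.

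Markers of several cell types moved with the members. Over all 6545 genes at their brightest probe set, 7.15% were lower and 5.03% higher in the 7-day-old label. Of 13 fibroblast and stellate markers 5 were lower and 0 higher. Their summed intensity was 44145 to 50024 in the 7-day-old arrays, against 58696 to 76839 in the 3-day-old arrays. Bright genes weigh most in such sums. Among them, SPARC averaged 16696 in islets labelled 7-day-old and 20390 in islets labelled 3-day-old, and FN1 7993 and 12378. Neither passed the test (limma adjusted p 0.0594 and 0.103). Of 6 pericyte and smooth muscle markers 3 were lower, with sums of 1905 to 2323 in the 7-day-old arrays and 3145 to 4153 in the 3-day-old arrays. Of 8 endothelial markers 3 were lower, with sums of 486 to 753 in the 7-day-old arrays and 1398 to 1852 in the 3-day-old arrays. Of 12 endocrine markers 5 were higher (CHGB, PCSK1, PCSK2, NEUROD1 and SCG3) and 0 lower, with sums of 137328 to 171678 in the 7-day-old arrays and 121806 to 150765 in the 3-day-old arrays. Beside MMP9, 0 of 7 macrophage markers and 0 of 4 neutrophil markers passed. The difference was negative in 6 of the 7 macrophage and 4 of the 4 neutrophil markers. The median difference was -0.997 for macrophage and -0.750 for neutrophil markers. It was -0.715 for fibroblast and stellate, -0.872 for pericyte and smooth muscle and -1.28 for endothelial markers. So these 5 lists differed in what passed, not in the direction of their medians. The macrophage sums were 381 to 601 in the 7-day-old arrays and 524 to 1661 in the 3-day-old arrays. The neutrophil sums were 152 to 337 in the 7-day-old arrays and 313 to 1048 in the 3-day-old arrays. Of 7 leukocyte markers 1 was lower and 0 higher. It was LCP1, an actin-bundling protein of blood cells, at 657 in islets labelled 7-day-old and 989 in islets labelled 3-day-old (-0.59, limma adjusted p = 0.0301), a call lost without any of 6 arrays (up to 0.0790). PTPRC, the common leukocyte antigen, reached the 20th percentile in 1 array. Beside MMP7, 1 of 6 duct markers (KRT19) and 1 of 5 acinar markers (CPB1) were lower. The part of cell composition in the members' differences was not tested.

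The genes whose log2 profile over the 8 arrays lay nearest to a member were found among 6544 genes with 1 symbol, by the root mean square difference of mean-centred log2 values. This measure includes the difference between labels, so it is a description of 8 points per gene. Nearest to MMP1 were BMPR1B, a BMP receptor, at 0.432, MMP3 at 0.435 and PTGS2, the inducible prostaglandin synthase, at 0.505. The same genes were nearest to MMP3, with BMPR1B at 0.398 and PTGS2 at 0.601. PTGS2 fell by 3.15 on the log2 scale (limma adjusted p = 0.00610), a size like those of MMP1 and MMP3. BMPR1B was dim, at 34.1, 8.30, 4.57 and 29.1 in the 7-day-old replicates, against 110, 98.9, 119 and 55.5 in the 3-day-old replicates. Nearest to MMP2 were PLXDC2 (0.165), CXCL14 (0.171) and the pericyte marker RGS5 (0.192). Nearest to MMP14 were GPR39 (0.124), FBN1 (0.134) and LOC100623720 (0.160), and nearest to TIMP1 were the smooth muscle gene TAGLN (0.0902), PMEPA1 (0.133) and LITAF (0.138).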

How the data were processed

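Islets of 8 pigs, 4 labelled 7-day-old and 4 labelled 3-day-old, were hybridised after 7 days of culture, each on an array of its own; ages and replicate numbers come from the sample labels. The authors deposited linear intensities, brought to an equal mean across arrays once 2% at each end is trimmed. No source used here gives the software that summarised them. For their own comparison the authors divided each probe set by its median, which is not part of the deposited intensities. The methods provide for an extra amplification round where the input of cRNA was below a set amount, and they name no samples.

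Values below 1 (1528) were set to 1 before log2 was taken. Of 23999 probe sets left without 124 controls, the 21574 at or above the 20th percentile of at least 1 array were tested. The labels were compared by limma 3.58.1 in R 4.3.3 (lmFit, eBayes, two-sided, Benjamini-Hochberg adjusted over all probe sets tested, threshold 0.05, no covariates). Two-sided exact permutation tests over 70 arrangements were added for members. In the 2016 platform annotation 10069 probe sets had 1 symbol, 198 had several and 13732 had none; only the first were named. A gene was represented by its brightest probe set. No positions or sequences are given, and RefSeq (Sscrofa11.1) served for gene order and synonyms.

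Named were every member probe set, each listed gene past the threshold (the 2 with the smallest p in lists with none) and the 3 nearest genes of each member that passed at its brightest probe set; other genes were chosen after their values were seen. The members and lists were chosen with earlier results of these data known. The scripts were tested on simulated data. Equal replicate numbers did not pair the arrays. Precision is limited by the number of arrays. Alternatives were other filters, scalings, offsets and variance models, the methods' t-test, array weights, the replicate block and leaving out arrays. Figures were drawn with Python 3.11.15 and matplotlib 3.10.9.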

Additional observations from a re-analysis of the deposited data

Results flagged for a closer look

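Within a label of 4 arrays, an array was marked when its gap to the nearest other took most of the range of the label (Dixon's test at 95%). Of 86 groups of 4 arrays examined, 3 were marked, and chance marks about 1 in 20. MMP7 in 7-day-old replicate 3 was 23452.5, above the 19741.5 to 20026.1 of the other 7-day-old arrays. TFPI2 in 3-day-old replicate 3 was 8745.32, above the 6343 to 6671 of the other 3-day-old arrays. SERPINE2 in 3-day-old replicate 4 was 365.565, below the 729 to 760 of the other 3-day-old arrays, and this is also the array that was lowest for MMP1 and MMP3 in the 3-day-old label.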

How the results depend on the processing

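The 14 member probe sets that reached the 20th percentile in a 7-day-old array had a lower mean in the 7-day-old label under each of the 18 alternatives that tested them. Of 2305 probe sets called over the array and 9 of the members, an intensity trend and robust variances, set together, gave 3491 and 12. Leaving out 1 array gave 1020 to 1877 over the array and 4 to 9 of the members. Leaving out 7-day-old replicates 3 and 4 together, chosen after seeing the data, gave 512 and 4. Listed genes lost calls there too. TFPI2, PLAT, TGFB1, DCN, NID2, COL5A1, COL5A2 and COL6A2 were among them (limma adjusted p 0.0524 to 0.0753). LIF, COL4A2, LAMC1 and FBN1 kept theirs at the brightest probe set. With the replicate number as a block, 0 probe sets passed over the array (5264 at an unadjusted p under 0.05) and 0 of the members, whose adjusted p-values were then 0.0599 or more. The numbers did not pair the arrays: residuals of equal numbers correlated at -0.0135 to 0.00487, and 0 of 4 arrays correlated best with their own number. The share of lower among called probe sets was 51.2%, and between 48.3% and 64.3% under the alternatives that called any. No pair of members passed the threshold under any alternative run on the pairs. The smallest exact permutation p that so few arrays allow leaves little room to pass, so this is no sign of stability. MMP7 and the brighter TIMP2 probe set passed only with that trend and those variances (adjusted p 0.0372 and 0.0412), under which the brightest TIMP3 probe set passed too (0.0302); it also passed with the filter at the 50th percentile in at least 4 arrays (0.0269) and without 7-day-old replicate 4 (0.0392). Signal limits the dimmest probe sets: 1 of TIMP3 reached the 20th percentile in 1 array, and 1 of MMP3 in 6. The cause of these changes was not tested.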
